A study of Mus musculus with 9 samples.

Results

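The DNA damage response finds broken or stalled DNA, signals it and repairs it. The genes described are 46 members of it, measured in the juvenile mouse testis and taken from a list of homologous recombination, checkpoint, Fanconi anaemia, mismatch repair and end-joining genes. A row of the deposited table was taken for a gene when any of its names equalled the gene's symbol. All 46 genes had at least 1 such row (59 rows in all), out of 23386 genes in the table.

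The study profiled testes of C57BL/6 mice at postnatal day 10. There were 3 RNA-seq libraries labelled Lin28a knockout, whose titles abbreviate them as cKO, and 3 libraries labelled wild type. A further 3 samples are LIN28A CLIP, an assay that sequences the RNA attached to a protein, and they were not analysed here. The sources used here do not give the promoter or Cre line behind the knockout, or whether each library was 1 animal. The deposited table holds 1 FPKM value per group (fragments scaled to transcript length and library size), in columns labelled case and control, called the case column and the control column below. All FPKM values below are the authors' pooled values, so there is no spread between libraries, no n, and no interval for any of them. The depth of the libraries is unknown.

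The names of the columns are the sole guide to which group is which. Lin28a itself, which encodes an RNA-binding protein of undifferentiated spermatogonia, was at 23.4 FPKM in the case column and 8.82 FPKM in the control column. In the authors' deposited table this 2.66-fold difference had q = 0.00191. The level of the targeted gene was thus higher, not lower, in the column named case. Whether the columns are swapped or the deleted allele still gives reads cannot be told from the table, so a direction below means case against control as the columns are named, and no more.

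Cells carry these genes for several linked tasks. The MRE11, RAD50 and NBN proteins bind a broken end, nucleases resect it, and BRCA1 with PALB2 helps the strand exchange of homologous recombination to begin. ATM and ATR are the kinases that signal breaks and single-stranded DNA. The Fanconi proteins deal with cross-links between the strands of DNA. In the testis the same machinery serves dividing spermatogonia and then the programmed breaks of meiotic prophase. There ATR, TOPBP1 and BRCA1 also mark unsynapsed chromosome axes. At this age the first germ cells are entering that prophase.

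The start regions of 3 members are shown because they carry the letters searched for, or because the gene's levels differed most. Promoters come from RefSeq (GRCm38.p6), which held a start region for 36 of the 46 members. Each sequence is the 250 bases before the start site, 5′ to 3′ on the gene's own strand. Capitals mark TTCGCGC or TTGGCGC (cores of sites of the E2F cell cycle factors), TTTGAA (the CHR element) and CCAAT, on either strand. Atr lies at chr9:95857347-95857596 (plus strand), Topbp1 at chr9:103305077-103305326 (plus strand) and Brip1 at chr11:86201194-86201443 (minus strand).
Atr: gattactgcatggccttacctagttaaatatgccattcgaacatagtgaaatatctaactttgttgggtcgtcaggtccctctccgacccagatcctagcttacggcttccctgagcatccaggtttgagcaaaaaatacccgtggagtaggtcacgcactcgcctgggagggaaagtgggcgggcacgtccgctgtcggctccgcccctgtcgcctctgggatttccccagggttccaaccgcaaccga
Topbp1: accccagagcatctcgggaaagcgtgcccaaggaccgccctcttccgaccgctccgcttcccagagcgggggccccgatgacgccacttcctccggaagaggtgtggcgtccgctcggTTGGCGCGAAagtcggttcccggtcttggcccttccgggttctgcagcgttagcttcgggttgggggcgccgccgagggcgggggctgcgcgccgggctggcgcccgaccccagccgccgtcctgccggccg
Brip1: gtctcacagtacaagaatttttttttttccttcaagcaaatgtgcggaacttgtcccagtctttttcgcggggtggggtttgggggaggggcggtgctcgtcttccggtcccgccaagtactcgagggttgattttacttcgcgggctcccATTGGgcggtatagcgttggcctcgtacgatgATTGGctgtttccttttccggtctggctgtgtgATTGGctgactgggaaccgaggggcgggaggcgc

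None of these letters occurred in the Atr window. Topbp1 had TTGGCGC on its own strand overlapping TTCGCGC on the opposite strand, and Brip1 had 3 copies of CCAAT on the opposite strand, while its E2F core lies outside the stretch shown. Over the whole 300 bases of each start region, which add 50 bases after the start site, an E2F core occurred in 7 of 36 members (19.4%), against 3.89% of all 32851 start regions, of which a gene can have several. These 7 were Brca1, Brip1, Fancf, Fancm, Pms2, Rad51c and Topbp1. CCAAT was in 23 of 36 members (63.9%), against 37.4% of all start regions. TTTGAA was in 2, Bard1 and Eme1 (5.56%), against 17.9%. These matches are descriptions of letters, and base composition differs between start regions.

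Most members were at close levels in both columns, as were most genes. On log2(FPKM + 1), 27 of the 44 members with a mean of at least 1 FPKM differed by under 0.1, beside 53.4% of all such genes. Of the 39 members with a usable p-value and a mean of at least 1 FPKM, 0 passed a q-value of 0.05, where 0.0514% of all tested rows did (7 of 13629). Each of these members had q = 0.999966 in the authors' deposited table. A single member, Atr, had an unadjusted p under 0.05 there (1 of 39). The background is 0.825% of genes in either direction (96 of 11642) and 0.438% in the lower direction. No member reached a fold of 1.5 among the 44 with a mean of at least 1 FPKM. Over all 12663 such genes, 1.3% were at least 1.5-fold higher and 1.41% at least 1.5-fold lower in the case column.

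The small differences leaned to one side. Of the 44 members, 30 were lower and 14 higher in the case column, or 68.2% lower, where the background is 39.2% lower and 60.8% higher over all genes. Taken on log2(FPKM + 1) as case minus control, their median difference was -0.05, against 0.03 over all genes. Over all 46 without a filter on low values, 31 were lower, with a median of -0.05. When the columns were rescaled by the median ratio over all genes, 36 of 44 members were lower beside 49.996% of all genes. The 6 that changed sides were Rad51d, Xrcc2, Rad52, Trp53bp1, Fanca and Msh6, each within 0.03 of 0 before. The pooled columns give no test for this lean. Differences of 0.2 or more on that log2 scale were found in 7 members on the lower side and 2 on the higher side, where 6.92% and 11.3% of all genes lay.

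**Figure D1:**
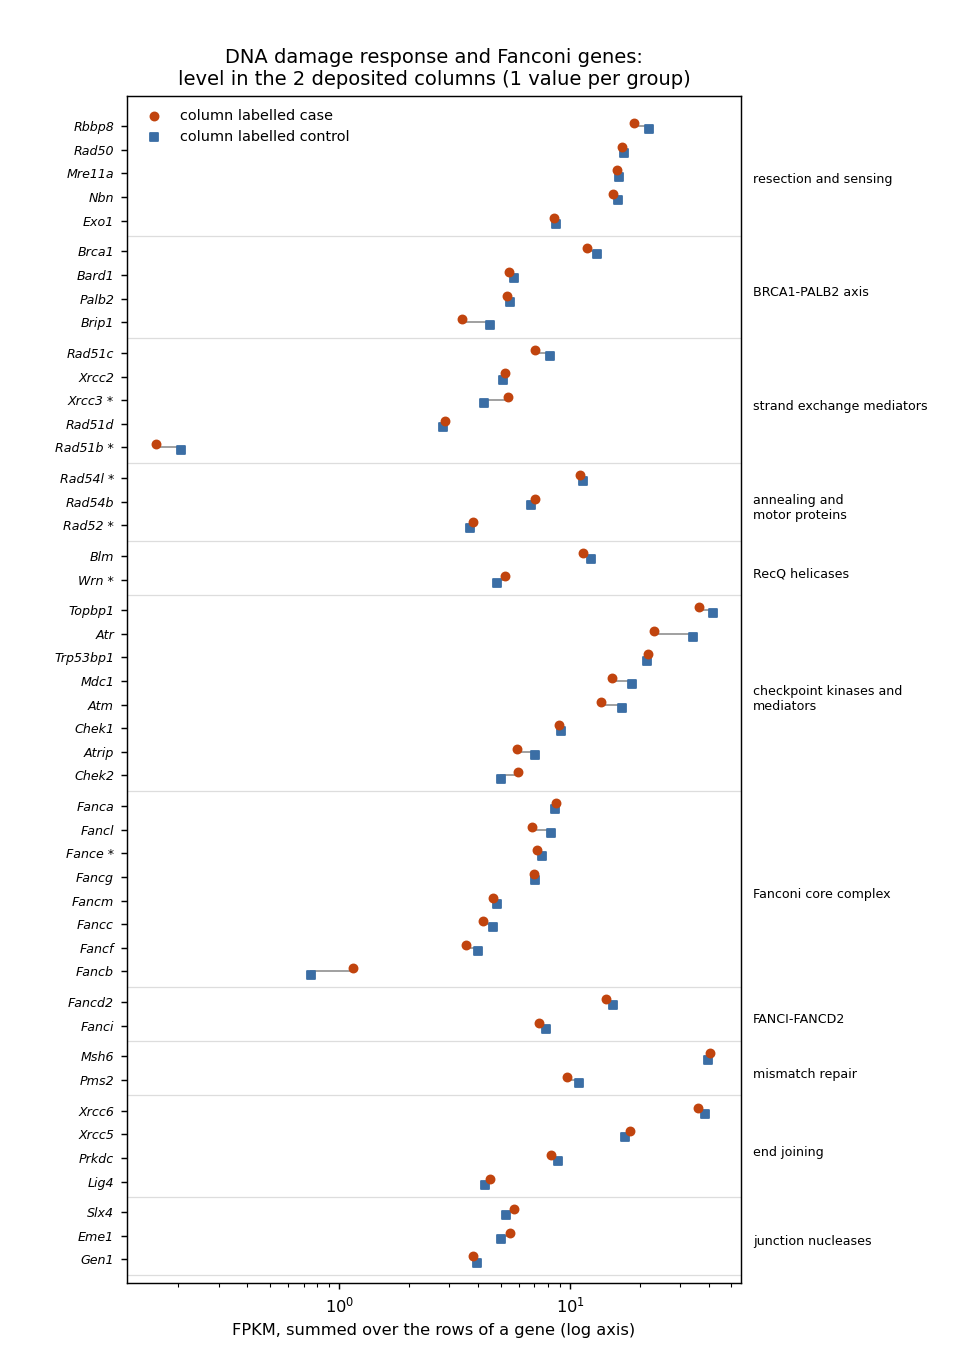
Level of each of the 46 members in FPKM (log axis), grouped by role, with the case column as circles and the control column as squares (1 pooled value per group, no error bars). A star marks a member whose row with the highest FPKM has no usable p-value in the authors' table. The marks lie close together for most genes, Atr is at 23.2 FPKM in case and 34.2 FPKM in control, and Rad51b and Fancb are the lowest genes.

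Of the role groups, the checkpoint genes had the most negative median difference. ATR is the kinase that answers single-stranded DNA and acts on unsynapsed axes in spermatocytes. Its gene Atr (NM_019864) was at 23.2 FPKM in the case column and 34.2 FPKM in the control column. It was thus 1.48-fold lower, and the authors' deposited table gives p = 0.0191 and q = 0.999966. Its difference of -0.54 lay below that of 99.1% of all genes at 1 FPKM or more. With the columns rescaled by the median ratio, Atr alone passed a 1.5-fold difference. The deposited locus of Atr also holds 1700065D16Rik, which stood at 0.433 FPKM in case and 0.429 FPKM in control.

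Partners of ATR were lower by less. Atrip, which encodes the protein that brings ATR to single-stranded DNA, was at 5.89 FPKM in case and 7.08 FPKM in control. Topbp1, the gene of the ATR activator, was at 36.1 FPKM in case and 41.4 FPKM in control. The p-values of these genes in the authors' deposited table were 0.476 and 0.407, so neither difference passed. Relative to Atrip, Atr stood 3.93-fold higher in FPKM in the case column and 4.83-fold higher in the control column.

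Among the checkpoint genes, the break-sensing kinase and its mediator came next after Atr. Atm was at 13.7 FPKM in case and 16.8 FPKM in control (p = 0.206 in the authors' deposited table). Mdc1, whose protein spreads the damage mark along chromatin, was at 15.2 FPKM in case and 18.6 FPKM in control (p = 0.228 in the authors' deposited table). Atm thus lay below Atr in both columns, at 0.590 of its level in case and 0.492 in control. Of all 44 members, Brip1, described with BRCA1 below, lay between Atr and Atm, at a difference of -0.32.

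The effector kinases and 53BP1 were apart from these. Chek1, the effector of ATR, was nearly level at 8.97 FPKM in case and 9.12 FPKM in control. Chek2, the effector of ATM, was higher at 5.96 FPKM in case and 5.02 FPKM in control (p = 0.536 in the authors' deposited table). Trp53bp1, whose protein limits resection, was at 21.7 FPKM in case and 21.5 FPKM in control. In all, 6 of the 8 checkpoint genes were lower, with a median difference of -0.21 and a summed level of 131 FPKM in case and 154 FPKM in control. The 5 of them on chromosome 9 were all lower; of the other 3, 1 was lower, and their median was 0.013.

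**Figure D2:**
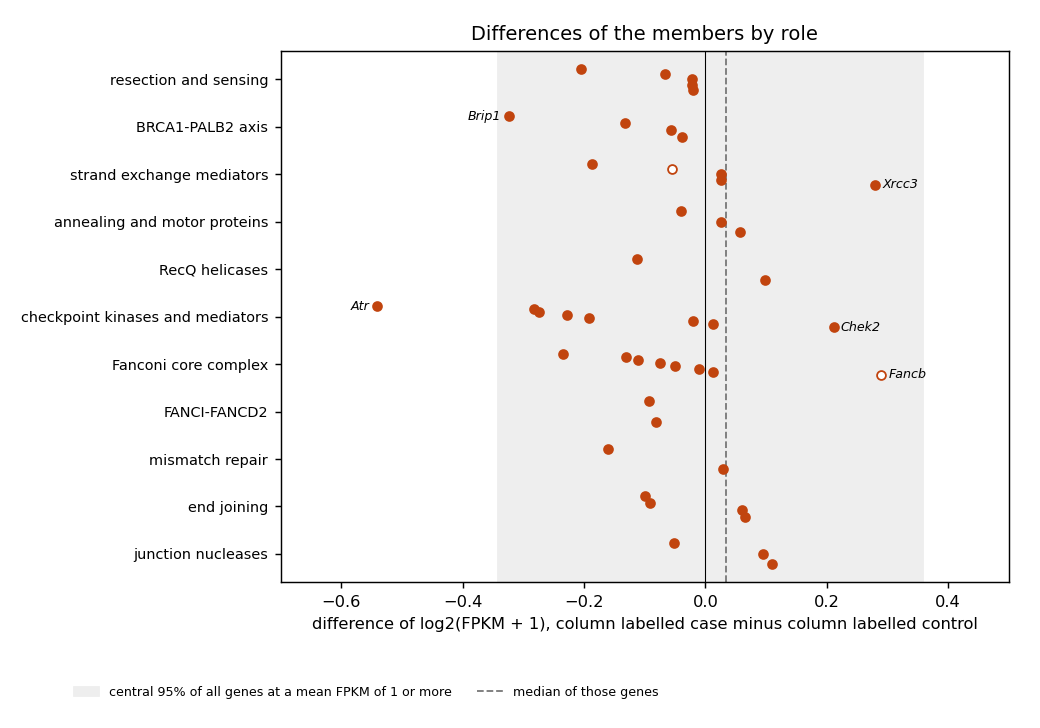
Difference of log2(FPKM + 1), case column minus control column, for each member by role (open circles are members with a mean under 1 FPKM). The grey band is the central 95% of the differences of all genes at a mean of 1 FPKM or more, from -0.34 to 0.36, and the dashed line is their median of 0.03. Atr at -0.54 is the 1 filtered member outside the band.

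All 5 genes of break recognition and resection were lower in the case column, with a median difference of -0.02, and 4 of them were within 0.1 of 0. The 3 genes of the MRN complex stood close to each other, with Rad50 at 16.8 FPKM in case and 17.1 FPKM in control. Mre11a, the nuclease gene, was at 16.0 FPKM in case and 16.2 FPKM in control. Nbn, which links the complex to ATM, was at 15.3 FPKM in case and 16.1 FPKM in control. All differences in the complex were thus under 0.1 in size on the log2(FPKM + 1) scale. The largest difference of the group was that of Rbbp8, at -0.21. Rbbp8, which encodes the resection factor CtIP, was at 18.8 FPKM in case and 21.9 FPKM in control (p = 0.403 in the authors' deposited table). Exo1, a long-range resection nuclease, was at 8.55 FPKM in case and 8.70 FPKM in control.

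The BRCA1 and PALB2 genes were all on the lower side, with a median difference of -0.09. Brip1, the gene of the BRCA1-bound helicase FANCJ, was at 3.40 FPKM in case and 4.51 FPKM in control. Its difference was -0.32 (p = 0.202 in the authors' deposited table). Brca1 was at 11.9 FPKM in case and 13.1 FPKM in control (p = 0.570 in the authors' deposited table). Its partner Bard1 stood lower than Brca1 in both columns, at 5.43 FPKM in case and 5.69 FPKM in control. Palb2, which bridges BRCA1 and BRCA2, was at 5.32 FPKM in case and 5.49 FPKM in control. None of the 4 passed in the authors' deposited table.

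Rad51b, Rad51c, Rad51d, Xrcc2 and Xrcc3, grouped as mediators of strand exchange, went both ways. Rad51c was at 7.04 FPKM in case and 8.15 FPKM in control (p = 0.533 in the authors' deposited table). Xrcc3, the partner of RAD51C, was at 5.37 FPKM in case and 4.25 FPKM in control, the highest difference among the 44 at 0.28. Its row has no usable p-value in the authors' deposited table, and its locus is shared with Klc1. Xrcc2 was at 5.23 FPKM in case and 5.12 FPKM in control. Rad51d was at 2.87 FPKM in case and 2.80 FPKM in control. These values place Rad51c and Xrcc3 on opposite sides and Xrcc2 and Rad51d near 0. The group's median of 0.03 turned to -0.0041 with median-ratio rescaling.

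Rad51b depends on which rows are counted. By name it had 1 row, at 0.161 FPKM in case and 0.206 FPKM in control. A second row carries no name but an accession of Rad51b (NM_009014), at 0.940 FPKM in case and 1.72 FPKM in control. With that row the gene was at 1.10 FPKM in case and 1.92 FPKM in control, a difference of -0.48. The p-value of the unnamed row was 0.196 in the authors' deposited table. A further 4 accession-matched rows without a name belong to Fance and Rbbp8; with them Fance was at 13.4 FPKM in case and 13.8 FPKM in control.

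Rad52 and the Rad54 genes were near level as sums, while the RecQ helicase genes Blm and Wrn differed by -0.11 and 0.10. Rad54b, a motor protein of strand exchange, was at 7.07 FPKM in case and 6.76 FPKM in control, from rows that also carry the name of Fsbp. Rad54l was at 10.99 FPKM in case and 11.3 FPKM in control. Rad52, a single-strand annealing protein, was at 3.79 FPKM in case and 3.70 FPKM in control. Blm, the helicase that dissolves recombination intermediates, was at 11.3 FPKM in case and 12.3 FPKM in control. Wrn, another RecQ helicase, was at 5.21 FPKM in case and 4.80 FPKM in control.

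Single transcripts of these genes did not all follow the sum. The row NM_001122822 of Wrn was at 1.84 FPKM in case and 1.14 FPKM in control, while NM_011721 was at 3.37 FPKM in case and 3.66 FPKM in control. In Rad54l, NM_009015 was at 2.54 FPKM in case and 1.64 FPKM in control, while NM_001122958 was at 6.55 FPKM in case and 7.41 FPKM in control. Rad52 had 4 rows, the highest at 2.65 FPKM in case and 2.25 FPKM in control. The rows of these 3 genes, of Fance and of Xrcc3 have the status FAIL in the authors' deposited table, so no p-value can be read for any of them.

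The Fanconi core complex, which ubiquitinates FANCD2 and FANCI, was on the lower side in 6 of the 7 members with a mean of at least 1 FPKM. Fancl, the ubiquitin ligase subunit, was at 6.86 FPKM in case and 8.26 FPKM in control (p = 0.511 in the authors' deposited table). Fancf was at 3.55 FPKM in case and 3.98 FPKM in control. Fancc was at 4.21 FPKM in case and 4.63 FPKM in control. Of the core genes, Fancl thus had the widest difference among those at 1 FPKM or more, at -0.24. The others were closer, with Fancm, the translocase that anchors the complex, at 4.64 FPKM in case and 4.84 FPKM in control. Fance was at 7.15 FPKM in case and 7.59 FPKM in control, while its row NM_001163819 alone was at 6.98 FPKM in case and 6.30 FPKM in control. Fancg was at 7.001 FPKM in case and 7.06 FPKM in control. Fanca was nearly equal as well, at 8.71 FPKM in case and 8.62 FPKM in control.

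Fancb is the X-linked member. It stood at 1.15 FPKM in case and 0.757 FPKM in control, a 1.52-fold difference at a mean under 1 FPKM (p = 0.319 in the authors' deposited table). The targets of the complex were on the lower side by under 0.1 each. Fancd2 was at 14.3 FPKM in case and 15.3 FPKM in control, and Fanci at 7.34 FPKM in case and 7.83 FPKM in control. Fancd2 thus had 1.94-fold the level of Fanci in case and 1.95-fold in control.

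End-joining genes were split, with 2 of 4 lower and a median difference of -0.02. Xrcc6, which encodes Ku70, was at 35.9 FPKM in case and 38.6 FPKM in control. Xrcc5, which encodes its partner Ku80, was at 18.1 FPKM in case and 17.3 FPKM in control. The RNA of Xrcc6 thus exceeded that of Xrcc5 in FPKM by 1.98-fold in case and 2.23-fold in control. Prkdc, the gene of the DNA-PK catalytic subunit, was at 8.23 FPKM in case and 8.83 FPKM in control. Lig4, the ligase of this pathway, was at 4.52 FPKM in case and 4.27 FPKM in control.

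Mismatch repair and the junction nucleases gave no common direction. Msh6, which encodes a mismatch recognition protein, was among the members at the highest levels, with 40.2 FPKM in case and 39.4 FPKM in control. Pms2 was at 9.69 FPKM in case and 10.9 FPKM in control (p = 0.562 in the authors' deposited table). The scaffold gene Slx4 was at 5.69 FPKM in case and 5.26 FPKM in control. Eme1, the partner of the nuclease MUS81, was at 5.50 FPKM in case and 5.02 FPKM in control. Gen1, a Holliday junction resolvase, was at 3.78 FPKM in case and 3.95 FPKM in control. Of the 3 junction genes, 2 were thus higher in case, with a median of 0.10.

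**Figure D3:**
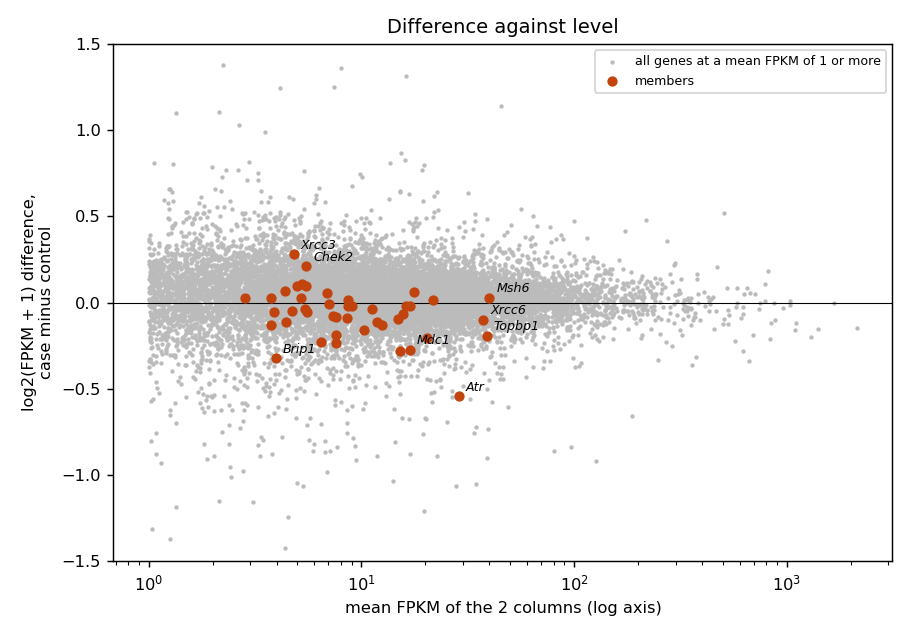
Difference of log2(FPKM + 1), case minus control, against the mean FPKM of the columns (log axis), with all genes at a mean of 1 FPKM or more in grey and the 44 members in red. The axis stops at 1.5 in size, which leaves out 15 genes, none of them a member. Atr stands lowest among the members, and the others lie closer to 0.

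Other genes of the same pathways were at close levels too. Of a list of 73, 72 were found by symbol, all with a mean of at least 1 FPKM. In the case column 41 were lower and 31 higher, or 56.9% lower, beside 39.2% of all genes. Their median difference was -0.012. None of the 64 with a p-value was under 0.05 unadjusted in the authors' deposited table. By fold, 0 of the 72 reached 1.5. Ube2t, the ubiquitin-conjugating enzyme that works with FANCL, had the smallest p-value among the other Fanconi genes, at 24.7 FPKM in case and 35.02 FPKM in control (p = 0.119 in the authors' deposited table). In that group Cenpx, whose protein binds FANCM, was at 15.5 FPKM in case and 19.2 FPKM in control.

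Homologous recombination genes outside the members had 14 of 21 lower (66.7%, beside 39.2% of all genes), with Rad51ap1 at 10.4 FPKM in case and 13.1 FPKM in control. Hells, a chromatin remodeller, was at 88.0 FPKM in case and 97.4 FPKM in control. Their p-values in the authors' deposited table were 0.352 and 0.548.
Among other checkpoint genes 11 of 21 were lower (52.4%, beside 39.2% of all genes). Tipin, of the replication fork, was at 73.0 FPKM in case and 88.5 FPKM in control, and Uimc1, which encodes RAP80, at 23.9 FPKM in case and 28.1 FPKM in control. The other mismatch repair genes had 3 of 5 lower (60%, beside the same 39.2%). Pcna, the replication clamp, was at 45.6 FPKM in case and 50.9 FPKM in control, and Pms1 at 7.84 FPKM in case and 6.78 FPKM in control. In the other end-joining genes 7 of 11 were higher (63.6%), near the 60.8% of all genes. The polymerase gene Polm was at 4.37 FPKM in case and 3.30 FPKM in control, and Parp1 at 119 FPKM in case and 111 FPKM in control.

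Markers of meiotic cells were lower in the case column, as were 30 of the 44 members (68.2%), beside 39.2% of all genes. In whole testis, fewer cells of a type and less RNA per cell cannot be told apart. All 24 meiotic prophase markers with a mean of at least 1 FPKM were lower in the case column, with a median difference of -0.44 and a summed level of 483 FPKM in case and 686 FPKM in control; none was listed at 0. Their 2 most abundant genes were Sycp3, of the chromosome axis, at 69.2 FPKM in case and 125 FPKM in control, and Syce2 at 82.9 FPKM in case and 89.3 FPKM in control. Spermatogonia markers had 8 of 17 lower and summed to 549 FPKM in case and 560 FPKM in control, Lin28a among them. Proliferation genes had 5 of 16 lower and summed to 610 FPKM in case and 617 FPKM in control. Sertoli markers had 7 of 14 lower, at a sum of 3612 FPKM in case and 3656 FPKM in control, and macrophage markers 7 of 8 lower, at 78.7 FPKM in case and 92.5 FPKM in control. All 8 Leydig markers were higher, at a sum of 386 FPKM in case and 305 FPKM in control, as were all 10 peritubular and stromal and all 7 endothelial markers. The part of these cell types in the values of the DNA damage genes was not tested.

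**Figure D4:**
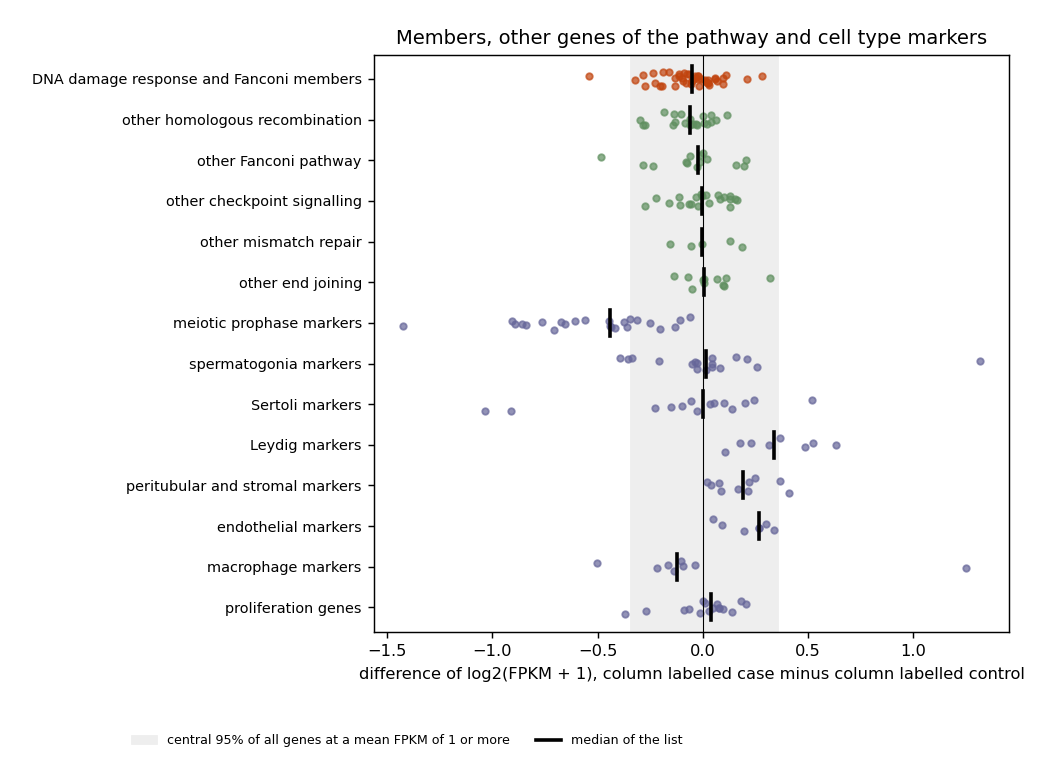
Difference of log2(FPKM + 1), case minus control, for the members, for other genes of the same pathways and for cell type markers (each point a gene at a mean of 1 FPKM or more, black bars the medians). The band is the central 95% of all genes. The members have a median of -0.05, the meiotic prophase markers -0.44, the proliferation genes 0.04 and the Leydig markers 0.34.

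Position was shared by part of the members. Chromosome 11 holds 7 of them and chromosome 9 holds 6, namely Atm, Atr, Atrip, Chek1, Topbp1 and Mre11a. All 6 on chromosome 9 were lower in the case column, with a median difference of -0.21, where 42.1% of the 722 genes of that chromosome were lower. Of these 6, Chek1 and Mre11a were near level, at -0.02 each, and 5 are checkpoint genes. Of the 3 checkpoint genes on other chromosomes, Mdc1 was lower, at a difference of -0.27. Trp53bp1 and Chek2 were higher, at 0.013 and 0.21, so the median of these 3 is the value of Trp53bp1 alone. The split by chromosome was chosen after the values were seen, and a part of position in the differences was not tested. Without the 6 on chromosome 9, 24 of the remaining 38 members at 1 FPKM or more were lower, or 63.2%.

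Some members faced a neighbour start to start. A gene on the other strand began within 1000 bases upstream, pointing away, at 15 of the 36 members with a RefSeq start region (41.7%), against 12.2% of all 27025 genes with one. This feature was chosen after the values were seen. Both genes had values in 14 pairs, and 8 of these had both on the same side. The share over all such pairs was not counted, so this count is not a result about the members. Some of the 14 pairs hold a gene under 1 FPKM, among them Atr with 1700065D16Rik. Rad51c starts 111 bases from Tex14, a gene of germ cell bridges, which was at 23.9 FPKM in case and 28.0 FPKM in control. Atm starts 376 bases from Npat, a histone gene regulator, which was at 13.4 FPKM in case and 15.2 FPKM in control. In both pairs the neighbours were on the lower side together. The authors' deposited table gave p = 0.348 for Tex14 and p = 0.457 for Npat. Palb2 starts 95 bases from Dctn5, which was near level at 35.6 FPKM in case and 35.1 FPKM in control. Fancb and its neighbour Mospd2 lay on opposite sides, with Mospd2 at 5.69 FPKM in case and 6.29 FPKM in control.

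Some levels are uncertain because loci overlap. As deposited, the loci of 10 members are shared with another gene, among them Atr, Xrcc3, Rad54b, Msh6 (with Fbxo11), Fancl (with Vrk2) and Fanci (with Polg). The sources used here do not say whether strand was used in counting, so reads of overlapping genes on opposite strands cannot be told apart.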

How the data were processed

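Testis RNA of 3 Lin28a knockout and 3 wild-type libraries was compared; the 3 CLIP samples were not analysed here. Per the submitters' processing notes, TopHat2 version 2.0.9 aligned the reads and the build was mm10; the sources used here do not name the program behind the FPKM values. The authors deposited FPKM in 1 column per group, per the file headers, with p-values and q-values. They also deposited a log2 fold, which is control over case, and another value, the test statistic, which was not used. The deposited q-values equal a Benjamini-Hochberg adjustment over the 13629 rows tested, to within 2.26e-06.

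FPKM was summed over the rows of a gene (Python 3.11.15, pandas 2.3.3). Members were matched by the names in the table. For the other genes, RefSeq (GRCm38.p6) gave symbols for 29067 of 29660 accessions. Genes with a mean of at least 1 FPKM were kept for counts and medians. Differences are of log2(FPKM + 1), case minus control, and the pseudocount of 1 makes them smaller for low genes. The p-value of a gene is that of its row with the highest FPKM. Table starts were read as counting from 0, so 1 was added. A start region was the one nearest the deposited locus end. No own test was possible without values per library, and a planned protein comparison was not made. Some genes of the planned lists are not reported here. The counting steps were run on simulated data with planted differences and no noise between the columns, which checks the code and not the results.

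The members, the lists and the alternatives were chosen with earlier results of these data known. All members were named. Of other lists, named genes were the 2 with the smallest p-value per pathway set, the 2 most abundant of a marker list that moved with a result, and genes said to be chosen later.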

Additional observations from a re-analysis of the deposited data

How the results depend on the processing

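The direction of the member median and of the count of lower members held under every alternative run. A change of pseudocount or of fold could not alter the side of any member, so those settings are no check of direction. The median of -0.05 lay between -0.09 (quantile normalization) and -0.03 (pseudocount of 5). Lower members numbered from 24 of 38 without chromosome 9 (63.2%) to 36 of 44 with median-of-ratios rescaling (81.8%). Over all genes the lower share was 39.2% and 49.996% under these settings. The count of members past a 1.5-fold difference, 0, became 1 with no filter on low values (Fancb), 1 with median-of-ratios rescaling (Atr), 1 with rows matched by accession too (Rad51b, an alternative chosen after seeing the data) and 2 at a fold of 1.3 (Atr and Brip1). The first, second and last follow from the filter, the scaling and the fold itself; for Rad51b, a row without a gene name was added to its sum. The median of the strand exchange mediators, 0.03, was -0.080 at a mean of at least 5 FPKM, where 2 genes were left. The Lin28a difference of 1.32 was 1.04 with a pseudocount of 5, which shrinks differences by construction. The checkpoint median of -0.21 lay between -0.25 and -0.16 under the alternatives that kept all chromosomes, and was 0.013 over the 3 genes left without chromosome 9, an alternative chosen after seeing the data. Of 119 medians under alternatives, 6 changed sign, that of the checkpoint genes and 5 of the strand exchange mediators or of the group of Rad52, Rad54l and Rad54b, from 0.03. Of 138 single differences, 6 moved by over 0.1 and 8 changed sign; those that changed sign were 0.10 or less in size at first. The counts of called rows stayed at most 1.5 times apart. No paired analysis was possible because the columns carry no replicate numbers, being 1 pooled value per group; for the same reason no library could be left out. Without depths, no counting error can be set beside a value.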
